A study of Homo sapiens with 4 samples.

Results

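The genes described here are 59 collagens, laminins, other matrix glycoproteins and proteoglycans, and enzymes that modify collagen. They were chosen by gene symbol, with earlier results of these data known. All 59 were among the 55764 gene names for which the study gives expression in TE5, a cell line from a human oesophageal squamous cell carcinoma. In 2 libraries, called ETS1 here, the cells stably carried a CMV-promoter lentiviral vector encoding human ETS1, a transcription factor. In the other 2, called control, they carried the empty backbone, and their genotype is labelled WT. All cells had been infected and then selected, and whether each line is a pool or 1 clone was not stated in the sources used here. Each library is bulk RNA-seq of total RNA, given as FPKM (fragments scaled to gene length and to library size), so levels can be set side by side between genes. In bulk RNA, a shift in the share of cells that express a gene and a shift in RNA per cell cannot be told apart. The labels number the libraries 1 and 2 and do not say whether they are separate cultures, so p-values here measure the spread between these libraries only.

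The extracellular matrix is the protein scaffold outside cells. Epithelial cells rest on a basement membrane, a sheet in which a laminin network and a collagen IV network are joined by nidogens and by the proteoglycans perlecan and agrin. Laminins are trimers of 1 alpha, 1 beta and 1 gamma chain, and collagens are trimers of chains wound into a triple helix. Fibrillar collagens, fibronectin and tenascin belong mainly to the stromal matrix and are widely used as markers when carcinoma cells take up mesenchymal features.

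Depth recovered from the values ran from 40356723 to 57269984 reads, and the ETS1 libraries were 1.35 times as deep as the controls on average. ETS1 itself had 0.491 and 0.509 FPKM in the controls and 1.84 and 1.87 FPKM in the ETS1 libraries. Its change was 0.93 on the log2(FPKM + 1) scale (standard error 0.062, limma adjusted p 0.000704), which matches the labels. An exact permutation test of 2 values against 2 gives a two-sided p of 0.333 at best, which it gave here. Of the defining squamous markers, TP63, KRT5 and KRT14 had a value of 0 in each control and no more than 0.0165 FPKM with ETS1. Of the whole list, 7 of 9 squamous markers stayed under 0.5 FPKM in every library, against 1 of 6 general epithelial markers. The exceptions were SOX2, at 2.72 and 3.13 FPKM in the controls and 3.52 and 3.82 FPKM with ETS1, and S100A2, at 0.490 and 0.579 FPKM against 1.18 and 0.881 FPKM. Of the general epithelial markers, KRT8 rose (0.62 on the log2(FPKM + 1) scale, limma adjusted p 0.000591) and KRT18 fell (-0.29, limma adjusted p 0.00223). EPCAM did not pass (-0.23). CDH1 had 0.571 and 0.567 FPKM in the controls and 1.08 and 0.916 FPKM with ETS1. CLDN4 had 0.706 and 0.588 FPKM against 0.338 and 0.301 FPKM. KRT19 was at no more than 0.0224 FPKM. Of 10 fibroblast markers, 8 stayed under 0.5 FPKM in every library. The exceptions were COL1A1, a member, and PDPN, which many carcinoma cells also express. That list, which holds 5 members of the set, summed to between 11.6 and 11.7 FPKM in the controls and between 14.0 and 14.2 FPKM with ETS1, and its part in the results was not tested. PDGFRB, THY1, FAP and COL1A2 were at no more than 0.0570 FPKM in each library. The 4 endothelial markers listed reached at most 0.0513 FPKM.

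Of the 59 genes, 41 averaged at least 1 FPKM across the libraries and were tested with limma. After Benjamini-Hochberg adjustment over all 14306 genes tested, 27 passed as higher with ETS1, 5 passed as lower (adjusted p under 0.05), and 9 did not pass. Among all genes tested 30.7% were called higher and 28.4% lower. The corresponding shares of the 41 matrix genes were 65.9% and 12.2%. Because the set was chosen with earlier results known, these shares describe this set and do not estimate an excess. The median change of the 41 was 0.22 on the log2(FPKM + 1) scale, beside 0.016 over all genes tested. Both ETS1 values lay above both controls for 31 of the 41 genes and below them for 6. Among all genes tested the groups did not overlap for 82.0%, with ETS1 above for 43.1% and below for 38.9%. Most changes were small: 8 of the 41 had an FPKM ratio of at least 1.5 with ETS1 above the controls, which 6.74% of all tested genes had. The authors' deposited table, which starts at a mean of 0.5 FPKM, gives 29 of the 46 set members in it as higher and 6 as lower, beside 25.3% and 25.9% of all its genes with an adjusted p. Voom, limma's weighting for reads, applied to recovered reads from the same level, called 33 of the 46 higher and 6 lower, beside 31.4% and 27.2%. The whole set of 59 summed to 323 and 326 FPKM in the controls and to 393 and 394 FPKM in the ETS1 libraries. The matrix genes are long, with a median inferred length of 7637 bases against 4029.5 over the genes tested. With a smooth trend of the change over gene length removed, 21 of the 41 were higher (51.2%) and 5 lower, and their median was 0.13. In that setting 27.5% of all genes tested were higher and 28.4% lower.

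**Figure D1:**
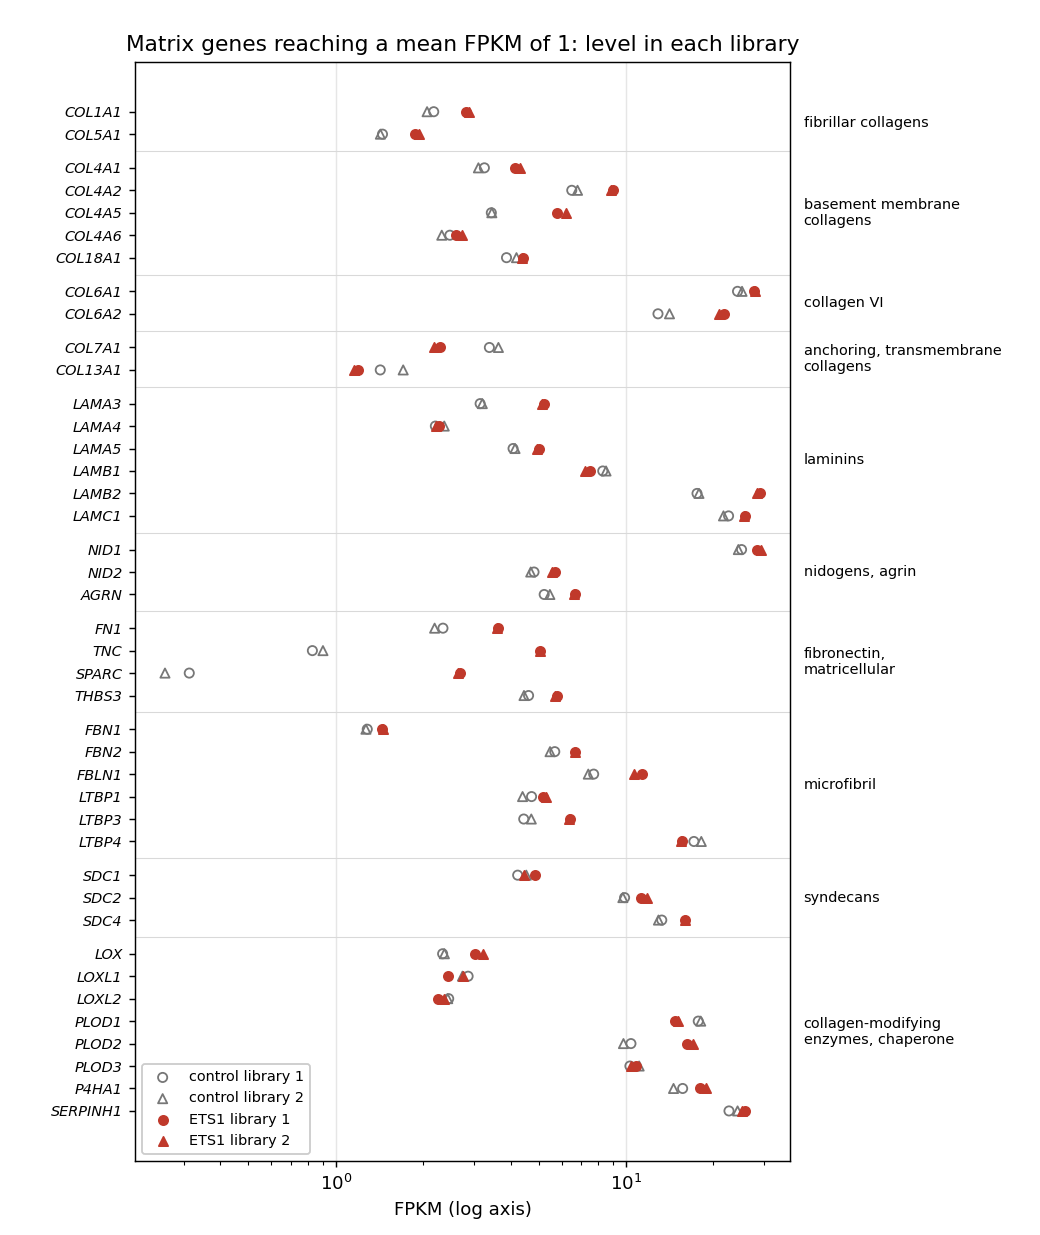
FPKM on a log axis in each of the 4 libraries for the 41 tested matrix genes, grouped by role; open grey symbols are controls, filled red symbols ETS1, circles library 1 and triangles library 2. SPARC and TNC are the genes whose groups lie farthest apart, and the groups of LAMA4, SDC1, LOXL1 and PLOD3 overlap.

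**Figure D2:**
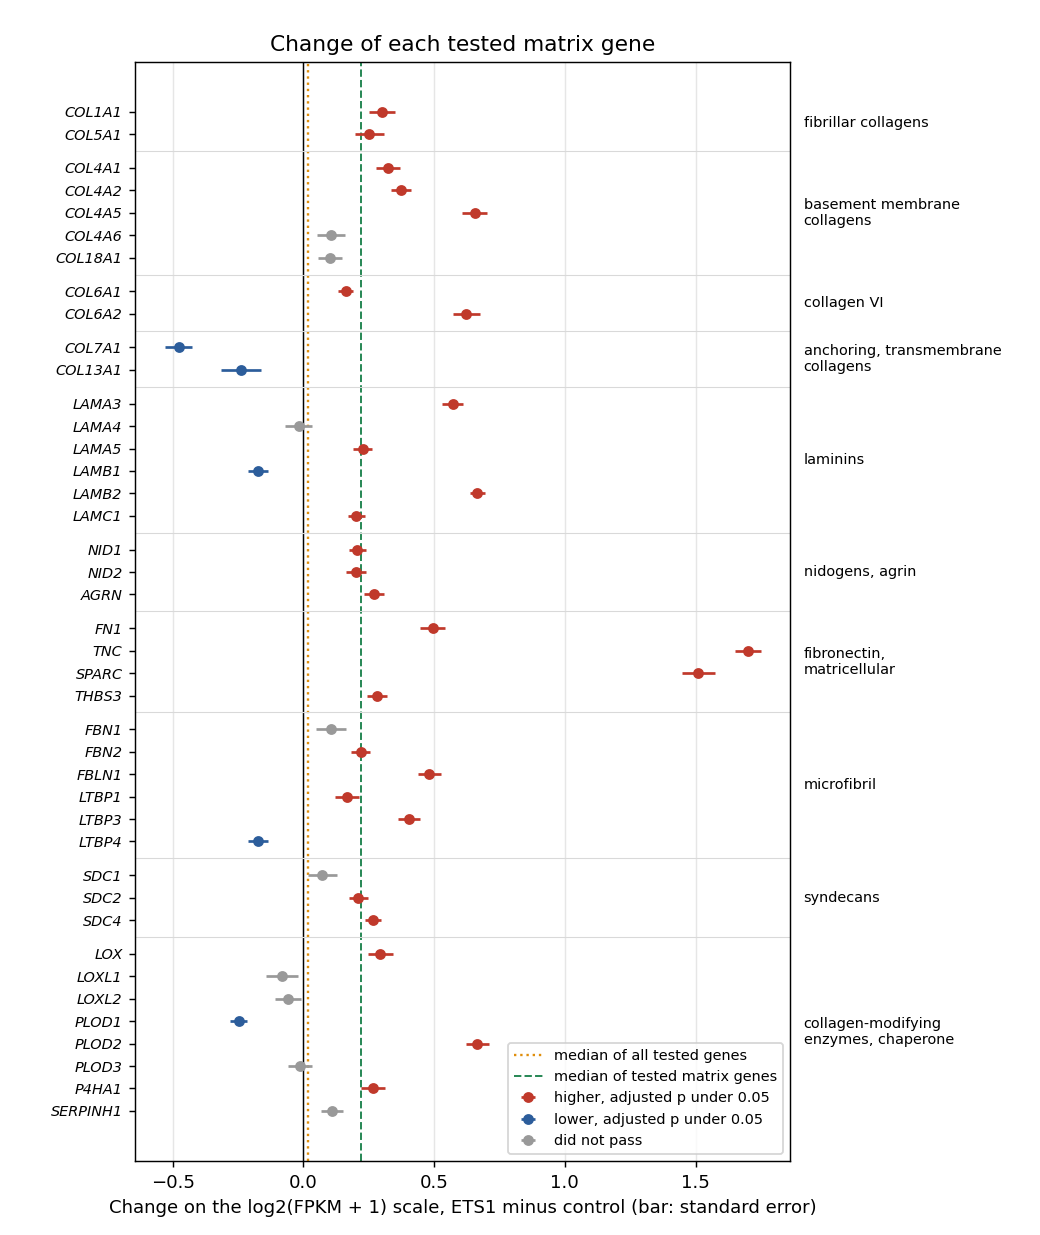
Change of each of the 41 genes on the log2(FPKM + 1) scale, ETS1 minus control, with its standard error from limma (2 libraries per group); red passed as higher, blue passed as lower, grey did not pass. The dashed line is the median of these genes (0.22) and the dotted line that of all tested genes (0.016).

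Because the overexpressed gene binds DNA, the bases before the start sites of 6 genes that moved are shown first, 5 of them higher with ETS1 and COL7A1 lower. ETS factors recognise a GGAA core. The stretches below lie within the 250 bases before the RefSeq start (GRCh38.p14), leave out any base in a GENCODE 29 exon, and are written 5′ to 3′ on the strand of the gene. Capitals mark GGAA and its complement TTCC, and adjoining or shared letters count as separate matches. LAMB3 has more than 1 listed start, and the first is shown. The window of SPARC, which holds 5 matches, lies within GENCODE 29 exons and is not printed.
TNC: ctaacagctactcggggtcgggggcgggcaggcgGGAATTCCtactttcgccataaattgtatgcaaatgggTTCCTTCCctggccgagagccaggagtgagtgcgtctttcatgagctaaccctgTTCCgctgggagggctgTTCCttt
LAMB3: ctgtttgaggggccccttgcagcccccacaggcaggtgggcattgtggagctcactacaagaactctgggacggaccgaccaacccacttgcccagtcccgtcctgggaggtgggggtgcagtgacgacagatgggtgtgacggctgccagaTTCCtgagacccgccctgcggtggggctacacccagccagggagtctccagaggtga
LAMB2: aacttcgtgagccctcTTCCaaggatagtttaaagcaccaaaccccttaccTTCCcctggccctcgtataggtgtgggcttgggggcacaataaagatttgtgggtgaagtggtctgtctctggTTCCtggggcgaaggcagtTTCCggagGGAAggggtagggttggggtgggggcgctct
PLOD2: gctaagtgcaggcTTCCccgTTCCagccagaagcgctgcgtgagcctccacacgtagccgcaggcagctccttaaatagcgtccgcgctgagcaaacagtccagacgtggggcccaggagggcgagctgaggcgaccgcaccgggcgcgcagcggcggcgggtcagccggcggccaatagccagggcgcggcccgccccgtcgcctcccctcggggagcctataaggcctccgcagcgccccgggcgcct
COL4A5: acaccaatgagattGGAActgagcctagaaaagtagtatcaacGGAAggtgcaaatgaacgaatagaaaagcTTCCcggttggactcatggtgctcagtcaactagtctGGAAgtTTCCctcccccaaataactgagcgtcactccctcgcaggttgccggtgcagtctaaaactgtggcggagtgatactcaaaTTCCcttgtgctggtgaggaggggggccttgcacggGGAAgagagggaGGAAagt
COL7A1: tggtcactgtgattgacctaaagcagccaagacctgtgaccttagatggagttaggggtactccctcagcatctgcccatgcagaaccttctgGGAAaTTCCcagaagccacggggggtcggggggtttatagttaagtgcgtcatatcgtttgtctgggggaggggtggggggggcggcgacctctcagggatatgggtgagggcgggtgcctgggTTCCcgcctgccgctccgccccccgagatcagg

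They lie at chr9:115118258-115118407, chr1:209652467-209652675, chr3:49133119-49133300, chr3:146161185-146161434, chrX:108439588-108439837 and chr3:48595330-48595579, in the order printed. COL4A5, which rose, and TNC, which rose most on the log2(FPKM + 1) scale, hold 8 and 6 matches of the core in their printed stretches. LAMB2 and PLOD2, which also rose, hold 5 and 2. LAMB3, whose FPKM ratio was 4.57, holds 1, and COL7A1, which fell, holds 3. Among windows not printed, LTBP4, which fell, had 9 matches at its first listed start and 0 at another. PLOD3, which did not pass, had 7, and FN1, P4HA1 and COL4A1, which rose, had 0 each. RefSeq starts were matched for 48 of the 59 genes, giving 63 windows of 250 bases. On either strand, GGAA was in 56 of the 63 windows (88.9%), beside 92.7% of all 35116 windows, with a mean of 2.94 matches per window in the 63 and 2.93 in all. The longer letters CCGGAAGT, a common form of the ETS site that contains the core, were in 0 of the 63 windows and in 3.42% of all windows. TGANTCA, the AP-1 letters, was in 2 of the 63, at LAMA3 and at another LAMB3 start, and in 6.57% of all. These matches are letters in a window, and no binding was measured.

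Fibronectin and the matricellular glycoproteins held the largest rises. These secreted proteins bind cells and other matrix proteins, and tenascin-C (TNC) and SPARC are abundant where tissue is being remodelled. Of 7 listed, 4 were tested and all 4 rose. TNC and SPARC averaged 0.867 and 0.285 FPKM in the controls, so they reached the level for testing only through the ETS1 libraries. That all 4 rose thus follows in part from the filter. TNC (chromosome 9, 115019578 to 115118257, minus strand, GENCODE 29 on GRCh38, as for all positions of genes) had 0.830 and 0.903 FPKM in the controls and 5.05 and 5.07 FPKM in the ETS1 libraries. The underlying reads were 291 and 346 against 2512 and 2491. Both ETS1 libraries were high and far from both controls. The FPKM ratio was 5.84, and the change on the log2(FPKM + 1) scale was 1.70 (standard error 0.049, limma adjusted p 0.000369). SPARC (chromosome 5, 151661096 to 151687165, minus strand), a collagen-binding protein, had 0.313 and 0.258 FPKM in the controls and 2.68 and 2.64 FPKM in the ETS1 libraries. It was read 61 and 55 times against 743 and 721. The groups were again wide apart, with a ratio of 9.33, a log2(FPKM + 1) change of 1.51 (standard error 0.063) and a limma adjusted p of 0.000439. The added 1 FPKM understates both changes: voom gave log2 changes of 2.54 for TNC and 3.22 for SPARC. Even after these rises both genes remained under the median level of the genes tested, 6.33 FPKM.

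FN1 (chromosome 2, 215360440 to 215436172, minus strand), fibronectin, had 2.34 and 2.19 FPKM in the controls and 3.61 and 3.59 FPKM in the ETS1 libraries. The ETS1 libraries were higher without overlap, by 0.49 on the log2(FPKM + 1) scale (standard error 0.048, limma adjusted p 0.00148). With the length trend removed FN1 was smaller, at 0.31, and still passed. THBS3, a cartilage-type thrombospondin, rose by 0.28, from 4.53 ± 0.116 to 5.73 ± 0.0629 FPKM (SD, n = 2 each). The other thrombospondins were nearly silent. THBS1 was between 0.0536 and 0.0853 FPKM in the 4 libraries and THBS2 at no more than 0.0138 FPKM. SPP1, osteopontin, had 1 to 3 reads in each library.

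Laminins were represented by chains of several trimers. Of 8 listed, 6 were tested, of which LAMB2, LAMA3, LAMA5 and LAMC1 rose and LAMB1 fell. LAMB2 (chromosome 3, 49121114 to 49133118, minus strand), the beta 2 chain, had 17.6 and 17.8 FPKM in the controls and 29.003 and 28.31 FPKM in the ETS1 libraries. The replicates nearly coincided and the groups were well apart, with a change of 0.66 on the log2(FPKM + 1) scale (standard error 0.029, limma adjusted p 0.000462). LAMB1, the beta 1 chain that can take the beta place in a trimer instead, had 8.32 and 8.53 FPKM in the controls and 7.503 and 7.20 FPKM in the ETS1 libraries. That is a small decrease without overlap, of -0.17 (standard error 0.037, limma adjusted p 0.0141). It did not pass without ETS1 library 2 (-0.15), and was larger with the length trend (-0.28) or the local chromosomal median removed (-0.27). The common gamma 1 chain LAMC1 (chromosome 1, 183023460 to 183145592, plus strand) was the most abundant laminin in the controls, with 22.6 and 21.7 FPKM, and had 25.8 and 25.5 FPKM in the ETS1 libraries. Its rise of 0.20 (standard error 0.032, limma adjusted p 0.00558) was small and without overlap.

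LAMA3 (chromosome 18, 23689443 to 23956222, plus strand) encodes the alpha 3 chain of the laminin that anchors stratified epithelia. It had 3.14 and 3.20 FPKM in the controls and 5.24 and 5.15 FPKM in the ETS1 libraries, an increase of 0.57 on the log2(FPKM + 1) scale (standard error 0.039, limma adjusted p 0.000730). The alpha 5 chain LAMA5 rose by 0.23, from 4.11 ± 0.0455 to 4.98 ± 0.0601 FPKM (SD, n = 2 each). LAMA4 did not pass (-0.018, standard error 0.052), and its 4 values, from 2.20 to 2.36 FPKM, overlapped. LAMB3, a laminin beta 3 chain, was under the level set for testing, with 0.196 and 0.295 FPKM in the controls and 1.20 and 1.05 FPKM in the ETS1 libraries. The reads were 37 and 61 against 321 and 277, so both ETS1 libraries were well above both controls. For LAMB3 the authors' deposited table, a DESeq2 comparison, has a log2 fold change of 2.10 and an adjusted p of 1.23e-15, and voom gave 2.19 (standard error 0.21, limma adjusted p 5.15e-06). LAMA1 had 0.837 to 0.998 FPKM and passed neither in the authors' deposited table (adjusted p 0.260) nor with voom (limma adjusted p 0.0517). With the length trend removed LAMA5 (0.054) and LAMC1 (0.090) no longer passed. LAMC1 also did not pass with the local chromosomal median removed (0.085).

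Of 4 other basement membrane linkers 3 were tested and all 3 rose. NID1 and NID2, the nidogens, and AGRN, agrin, changed by 0.21, 0.20 and 0.27 on the log2(FPKM + 1) scale, with limma adjusted p of 0.00512, 0.00932 and 0.00408. NID1 was among the most abundant genes of the set, from 24.7 ± 0.446 to 28.6 ± 0.643 FPKM (SD, n = 2 each). HSPG2, perlecan, had 0.269 and 0.260 FPKM in the controls and 0.417 and 0.474 FPKM in the ETS1 libraries. Its FPKM ratio was 1.68 without overlap, at a level under that set for testing, and it did not pass in the fit with no filter (0.19). NID2 lost the threshold with the local chromosomal median removed (0.095) and without ETS1 library 1 (0.19), and AGRN with the length trend removed (0.13), a setting in which NID2 was also at 0.13 and passed.

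Collagen IV is the network collagen of basement membranes, built from trimers whose main form joins the chains of COL4A1 and COL4A2. Of the 5 basement membrane collagens, 3 rose and 0 fell. COL4A1 went from 3.18 ± 0.106 to 4.23 ± 0.124 FPKM and COL4A2 from 6.65 ± 0.215 to 8.92 ± 0.103 FPKM (SD, n = 2 each). Their changes of 0.32 and 0.37 on the log2(FPKM + 1) scale were close, with limma adjusted p of 0.00387 and 0.00159. These 2 genes lie head to head on chromosome 13, with RefSeq starts 127 bases apart, and their annotated spans overlap. How reads in the overlap were counted depends on the use of strand, which the sources used here do not give. COL4A5 and COL4A6 also lie head to head, on the X chromosome, with starts 380 bases apart, and did not move in step. COL4A5 (108439844 to 108697545, plus strand) had 3.43 and 3.45 FPKM in the controls and 5.77 and 6.23 FPKM in the ETS1 libraries. The ETS1 libraries differed more from each other than the controls did, and the groups were well apart. Its change was 0.66 (standard error 0.047, limma adjusted p 0.000803). COL4A6 had 2.47 and 2.32 FPKM in the controls and 2.59 and 2.72 FPKM in the ETS1 libraries, a change of 0.11 (standard error 0.052, limma adjusted p 0.141). It passed with voom (0.15) and was negative with the length trend (-0.027) or the local chromosomal median removed (-0.059). COL18A1, which carries the endostatin fragment, did not pass either (0.10, standard error 0.048).

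Collagen VI forms beaded filaments at the border of basement membrane and stroma, normally from 3 different chains. COL6A2 (chromosome 21, 46098097 to 46132849, plus strand) had 12.9 and 14.1 FPKM in the controls and 21.7 and 20.9 FPKM in the ETS1 libraries. Both ETS1 libraries were higher, by 0.62 on the log2(FPKM + 1) scale (standard error 0.051, limma adjusted p 0.00102). Its neighbour COL6A1 rose less, by 0.16, from 24.7 ± 0.625 to 27.7 ± 0.0443 FPKM (SD, n = 2 each), and did not pass with the local chromosomal median removed (0.057) or without either ETS1 library (0.16 each). The large chain COL6A3 was almost unread, with 6 and 1 control reads against 61 and 51 with ETS1, or at most 0.0542 FPKM.

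Among the fibrillar collagens, 2 of 5 were tested and both rose. COL1A1, the alpha 1 chain of collagen I, averaged 2.12 ± 0.0789 FPKM in controls and 2.84 ± 0.0511 FPKM with ETS1 (SD, n = 2 each), which is a change of 0.30 (limma adjusted p 0.00599). With the length trend removed it was 0.17 and still passed. Its usual partner COL1A2 was listed at 0 in 3 libraries and had 1 read in ETS1 library 1. COL3A1 was at no more than 0.117 FPKM. COL5A1 averaged 1.44 ± 0.0169 FPKM in controls and 1.90 ± 0.0471 FPKM with ETS1 (SD, n = 2 each), which is a change of 0.25 (limma adjusted p 0.0138). It did not pass with the length trend removed (0.11), with no filter (0.25) or without either ETS1 library (0.27 and 0.24). COL5A2, the second chain of collagen V, was under the level for testing, with 0.448 and 0.378 FPKM in the controls and 1.06 and 0.846 FPKM in the ETS1 libraries. Both ETS1 libraries were above the controls and were themselves apart. For COL5A2 the authors' deposited table has a log2 fold change of 1.12 and an adjusted p of 2.48e-08, and voom gave 1.20 (standard error 0.16, limma adjusted p 5.13e-05).

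Of 5 anchoring, fibril-associated and transmembrane collagens, 2 were tested and both fell. COL7A1 (chromosome 3, 48564073 to 48595267, minus strand), the collagen of the anchoring fibrils under stratified epithelium, had 3.38 and 3.63 FPKM in the controls and 2.29 and 2.19 FPKM in the ETS1 libraries. Both ETS1 libraries were low, with no overlap, at 0.638 of the control mean. The change of -0.48 on the log2(FPKM + 1) scale (standard error 0.052, limma adjusted p 0.00199) was the largest fall among the tested members. The transmembrane collagen COL13A1 had 1.42 and 1.71 FPKM in the controls and 1.19 and 1.15 FPKM in the ETS1 libraries. The controls differed from each other by about as much as the lower of them did from the ETS1 values. Its change of -0.24 (standard error 0.077, limma adjusted p 0.0475) just passed. It did not pass without control library 2 (-0.16), without either ETS1 library (-0.25 and -0.23), with no filter (-0.24), with a replicate block (-0.24) or with the local chromosomal median removed (-0.20). COL12A1, a collagen found along fibril surfaces, was under the level for testing, with 0.881 and 0.904 FPKM in the controls and 0.549 and 0.557 FPKM in the ETS1 libraries. For COL12A1 the authors' deposited table has a log2 fold change of -0.67 and an adjusted p of 5.76e-07. COL17A1, the hemidesmosome collagen of basal epithelial cells, was nearly unread, with 4 and 8 control reads against 20 and 11 with ETS1. COL16A1 had 0.0665 to 0.148 FPKM.

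Microfibril proteins build elastic microfibrils and hold latent TGF-beta in the matrix. Of 8 listed, 6 were tested, with 4 higher and 1 lower. FBLN1, fibulin-1, rose most, by 0.48, from 7.57 ± 0.228 to 10.98 ± 0.505 FPKM (SD, n = 2 each; limma adjusted p 0.00136). LTBP3, which binds latent TGF-beta, rose by 0.41, from 4.58 ± 0.194 to 6.39 ± 0.01998 FPKM (SD, n = 2 each; limma adjusted p 0.00168). Its relative LTBP4 had 17.1 and 18.2 FPKM in the controls and 15.6 and 15.5 FPKM in the ETS1 libraries. Both ETS1 libraries were lower, by a small margin (-0.17, standard error 0.038, limma adjusted p 0.0145). LTBP4 did not pass with no filter (-0.17) or without either ETS1 library (-0.18 and -0.17). With the length trend removed LTBP4 was at -0.28 and LTBP3 at 0.27, and both passed. FBN2, fibrillin-2, rose by 0.22 and LTBP1 by 0.17 (limma adjusted p 0.00656 and 0.0311). Neither passed with the length trend removed (0.057 and 0.069) or with the local chromosomal median removed (0.013 and 0.014), and LTBP1 lost the threshold with no filter (0.17), with a replicate block (0.17), with quantile normalization (0.11) and without control library 2 and without either ETS1 library (0.12 to 0.18). FBN1, fibrillin-1, had 1.28 and 1.27 FPKM in the controls and 1.45 and 1.45 FPKM in the ETS1 libraries and did not pass (0.10, standard error 0.057). FBN1 passed with voom (0.18) and was negative with the length trend removed (-0.075). LTBP2, under the level for testing, had 0.745 and 0.672 FPKM in the controls and 0.872 and 0.931 FPKM with ETS1, without overlap. It passed with voom (0.35, limma adjusted p 0.00826) and not in the authors' deposited table (log2 fold change 0.27, adjusted p 0.0582). FBLN2 had 0.149 and 0.136 FPKM in the controls against 0.318 and 0.372 FPKM, and passed as higher in the fit with no filter (0.24).

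The small leucine-rich proteoglycans, which bind collagen fibrils, were read little. LUM had 1 and 5 control reads against 29 and 24 with ETS1, BGN had 0 to 5 reads per library, and DCN was listed at 0 in both ETS1 libraries and at no more than 0.0122 FPKM in the controls. LUM passed as higher in the fit with no filter (0.17). The syndecans, heparan sulfate proteoglycans of the cell membrane, were expressed. SDC4 rose by 0.27, from 13.1 ± 0.244 to 15.98 ± 0.0667 FPKM, and SDC2 by 0.21, from 9.82 ± 0.0943 to 11.5 ± 0.381 FPKM (SD, n = 2 each), with limma adjusted p of 0.00221 and 0.00738. SDC1, the main syndecan of epithelia, did not pass (0.072, standard error 0.056), and its groups overlapped between 4.23 and 4.86 FPKM. SDC2 did not pass with the local chromosomal median removed (0.036) or without ETS1 library 2 (0.18).

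Collagen needs enzymes that hydroxylate, fold and cross-link it. All 8 listed were tested, with 3 higher, 1 lower and 4 that did not pass. PLOD2 (chromosome 3, 146069440 to 146163653, minus strand), the lysyl hydroxylase that acts on the ends of collagen chains, had 10.4 and 9.80 FPKM in the controls and 16.2 and 17.0 FPKM in the ETS1 libraries. Both ETS1 libraries were far above both controls, by 0.67 on the log2(FPKM + 1) scale (standard error 0.045, limma adjusted p 0.000711). PLOD1 (chromosome 1, 11934205 to 11975538, plus strand), which hydroxylates lysines within the helix, had 17.7 and 18.1 FPKM in the controls and 14.7 and 15.2 FPKM in the ETS1 libraries. It fell without overlap, by 0.25 (standard error 0.032, limma adjusted p 0.00310). PLOD3 did not pass (-0.012, standard error 0.045) and its groups overlapped. P4HA1, a prolyl 4-hydroxylase subunit, rose by 0.27 (limma adjusted p 0.00720). LOX, lysyl oxidase, rose by 0.29, from 2.35 ± 0.0231 to 3.11 ± 0.136 FPKM (SD, n = 2 each; limma adjusted p 0.00643), and did not pass with the local chromosomal median removed (0.095). Its relatives LOXL1 (-0.081) and LOXL2 (-0.059) did not pass, nor did SERPINH1, the collagen chaperone (0.11, standard error 0.041), which passed with voom (0.11), with quantile normalization (0.18) and without control library 2 (0.16).

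Ratios of 8 gene pairs, chosen with the values known, were taken within each library. LAMB2 over LAMB1 was 2.11 and 2.09 in the controls and 3.87 and 3.93 in the ETS1 libraries. PLOD2 over PLOD1 crossed 1, from 0.586 and 0.542 to 1.1001 and 1.124. LTBP3 over LTBP4 was 0.259 in both controls and 0.411 in both ETS1 libraries. COL4A5 over COL4A6 went from 1.39 and 1.49 to 2.23 and 2.29, while COL4A1 over COL4A2 overlapped between the groups, at 0.500 and 0.455 against 0.460 and 0.488. COL6A1 over COL6A2 went from 1.88 and 1.78 to 1.27 and 1.33, and LAMA3 over LAMA5 went from 0.770 and 0.771 to 1.04 in both. FBN2 over FBN1 moved least of those without overlap, from 4.43 and 4.31 to 4.603 and 4.59. For 7 of the 8 pairs the groups did not overlap, beside 82.0% of the single genes tested, and COL4A1 over COL4A2 and FBN2 over FBN1 barely moved. The exact two-sided permutation p for each of those 7 was 0.333, the smallest that 2 values against 2 allow, or 0.381 adjusted over the 8 pairs, so no pair could pass.

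**Figure D3:**
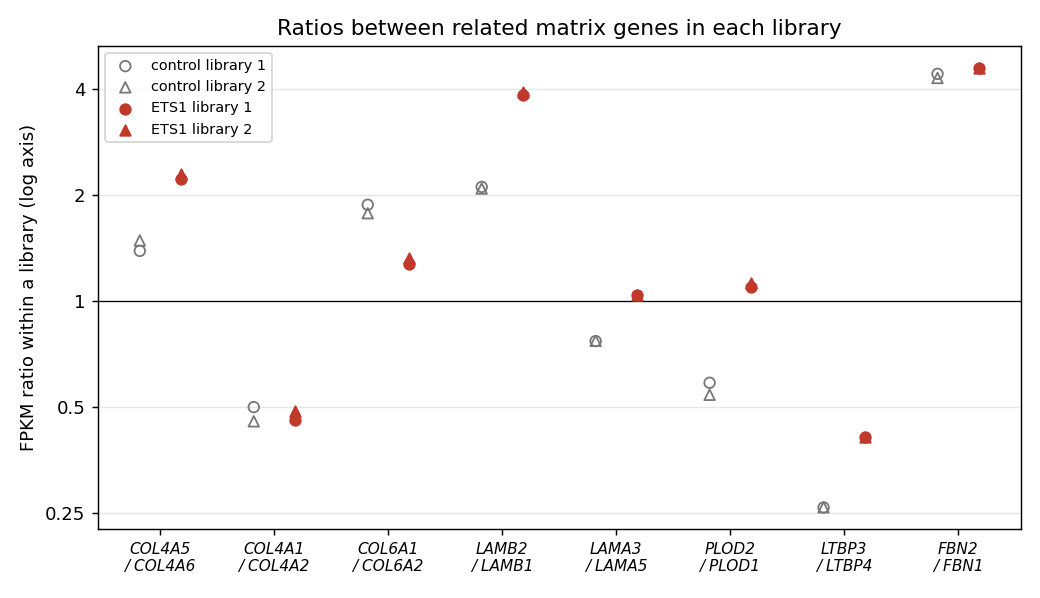
FPKM ratio of the first to the second gene of each of 8 pairs in each library, on a log axis; open grey symbols are controls, filled red symbols ETS1. LAMB2 over LAMB1 is near 2.1 in the controls and 3.9 in the ETS1 libraries, and only COL4A1 over COL4A2 overlaps between the groups.

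Position on the chromosome moved with some of these results. For each gene the median change of the 50 nearest tested genes on its chromosome was taken. It was -0.39 around LOXL2 on chromosome 8, -0.35 around COL5A1 on chromosome 9, -0.30 around FBN1 and -0.22 around LOXL1 on chromosome 15, and -0.21 around COL7A1. With this local median removed LOXL2 turned positive and passed (0.34), FBN1 passed (0.42), COL5A1 was at 0.60, and COL7A1 still passed as lower at -0.27. Around FBN2, LTBP1, SDC2 and LOX the local median was 0.15 to 0.19, and these 4 no longer passed once it was removed. The 8 largest rises among the 41 tested genes passed either way. With the local median removed TNC was at 1.86, SPARC at 1.39, LAMB2 at 0.75, PLOD2 at 0.53, COL6A2 at 0.52, COL4A5 at 0.51, FN1 at 0.44 and LAMA3 at 0.39. The part of chromosomal position in these results was not tested.

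**Figure D4:**
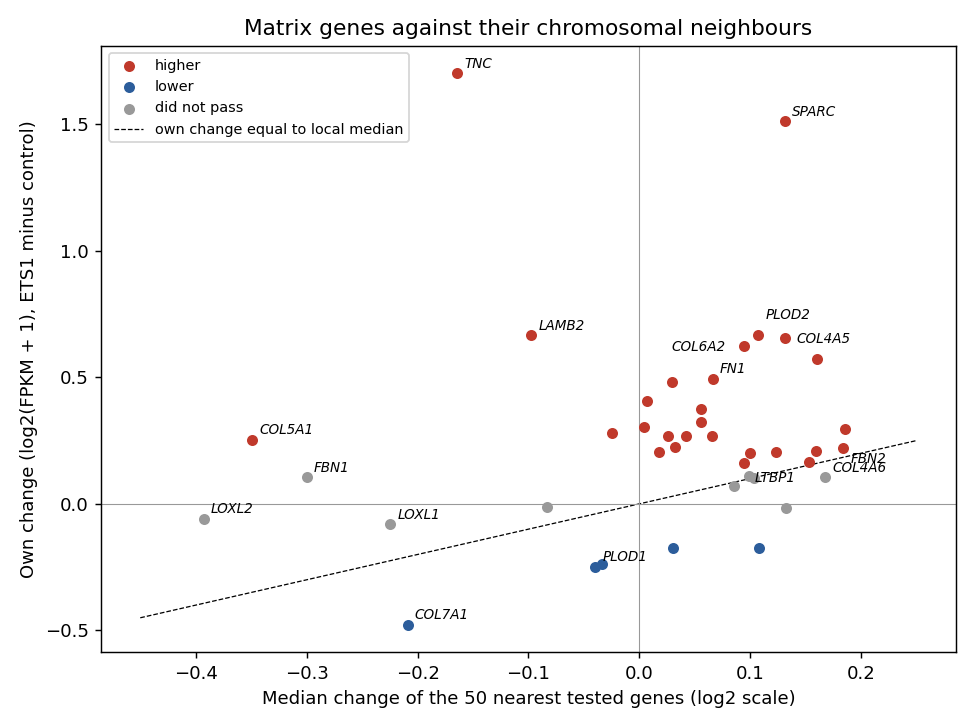
Own change of each tested matrix gene with a position (log2(FPKM + 1), ETS1 minus control) against the median change of its 50 nearest tested neighbours; points on the dashed line changed as much as their neighbours. LOXL2, COL5A1, FBN1 and LOXL1 lie where neighbours were lower, and TNC rose in a stretch whose local median was -0.16.

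Further matrix genes, in lists also chosen with earlier results of these data known, were read from the same fit. Of 152 other matrix, processing and receptor genes 75 were tested, with 40 higher and 9 lower, or 53.3% and 12.0% beside 30.7% and 28.4% of all genes tested. Among other collagens 4 of 8 tested were higher and 1 lower. The rises were led by COL9A2 (0.59), COL9A3 (0.50) and COL14A1 (0.39), each under 2 FPKM. COL9A2 and COL9A3 averaged 0.920 and 0.967 FPKM in the controls and reached the level for testing only through the ETS1 libraries. Among other basement membrane genes 4 of 5 were higher, including NPNT (0.34), PXDN (0.32) and FRAS1 (0.22), the last of which kept its call in 4 of 14 alternatives. FRAS1 lost it with any 1 library left out (0.17 to 0.26), and was at 0.022 with the length trend removed and 0.087 with the local chromosomal median removed. PXDN was at 0.17 with the length trend removed, and NPNT at 0.22 with the local median removed, and both passed. Of 17 other glycoproteins 10 were higher and 0 lower, led by the integrin ligand EDIL3 (0.79), CTGF (0.75) and EFEMP2 (0.48). Of 10 other proteoglycans 7 were higher and 0 lower, led by GPC6 (0.49), GPC1 (0.45) and VCAN (0.44). With the local chromosomal median removed GPC1 did not pass (0.038) and GPC6 was at 0.27. VCAN was at 0.27 with the length trend removed. The 24 other collagen-processing genes were split, with 8 higher and 6 lower. SEC23A, of the coat that carries procollagen out of the endoplasmic reticulum, rose by 0.51 and P4HA2 by 0.45, while PPIB, a prolyl isomerase of the collagen folding complex, averaged 59.9 ± 1.21 FPKM in controls and 44.6 ± 0.628 FPKM with ETS1 (SD, n = 2 each). Its change of -0.42 was -0.15 with the local chromosomal median removed. Of 11 tested matrix receptors 7 were higher and 2 lower, with the collagen receptors DDR2 (0.62) and DDR1 (0.52) and the integrin chain ITGAV (0.59) changed most.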

How the data were processed

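RNA of 2 control and 2 ETS1 libraries of TE5 was compared. The authors used HISAT2, HTSeq and DESeq2 with hg38, per the submitters' processing notes, which give no versions. The annotation and use of strand are not given in the sources used here. The authors deposited FPKM for 55764 genes. The authors' deposited table of 16652 genes (mean FPKM of at least 0.5) repeats them and holds, per the file headers, a mean normalized count (a signal over the 4 libraries), log2 fold changes with log2 standard errors, p-values and adjusted p-values, 969 of them missing.

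FPKM was taken as log2(FPKM + 1), the 14306 genes averaging 1 FPKM or more were kept, and limma 3.58.1 (R 4.3.3) was fitted with a group term and an intensity trend (2 residual and 2.84 prior degrees of freedom). P-values are two-sided and were adjusted by Benjamini-Hochberg over the genes tested, with calls at 0.05. Changes on this scale understate those of low genes. Reads were recovered from FPKM, the ratios of depth and the mean normalized counts: 99.7% of 66608 values fell within 0.05 of a whole number. For genes outside that table reads are the whole-number solution nearest the GENCODE 29 exon length, an estimate. Replicates differed by more than counting noise (chi-square per gene 4.25 in the controls and 4.24 in ETS1), so all 4 count as separate libraries. The limma step was run on simulated counts in which few genes changed, whereas 59.1% of the genes tested here passed. That run therefore cannot say how reliable the calls are at such a share.

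Members and gene lists were chosen with earlier results of these data known. All 59 are accounted for. Full values go to the 8 largest rises among the tested members, the falls that passed and 6 further genes chosen by name. At most 3 genes are named from each other list. Alternatives changed the pseudocount (0.1), dropped the filter or raised it to 5 FPKM, or used trimmed-mean and quantile scaling, a replicate block, voom on recovered reads, the authors' deposited values, a length trend or the local chromosomal median removed, and each library left out. Voom at a mean FPKM of at least 0.5 was added after seeing the data. Promoter letters come from RefSeq (GRCh38.p14), positions from GENCODE 29.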

Additional observations from a re-analysis of the deposited data

How the results depend on the processing

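Of the 32 matrix genes that passed, 19 kept their direction and their side of the threshold under every alternative they could be fitted in, among them TNC, SPARC, LAMB2, PLOD2, COL4A5, COL6A2, LAMA3, FN1, COL7A1 and PLOD1. With the filter raised to 5 FPKM, which tests fewer genes, 2562 of 8215 genes were higher (31.2%) and 3000 lower (36.5%), so more were lower than higher. More were also lower with trimmed-mean scaling (4051 higher, 4333 lower), with the length trend removed (3930, 4063), with the local chromosomal median removed (3535, 3630), in the authors' deposited table (3966, 4060) and without ETS1 library 2 (2845, 2945). With the filter at 5 FPKM, 16 of 21 matrix genes were higher and 3 lower, and 13 of 27 other matrix genes were higher and 5 lower. Leaving out each library in turn gave 2845 to 3962 genes of all tested higher, 23 to 27 matrix genes higher and 2 to 5 lower, and 25 to 32 other matrix genes higher; the lowest counts of these except the 23, which either ETS1 library gave, came without ETS1 library 2. The median change of the matrix genes was 0.25 with a pseudocount of 0.1, 0.17 with no filter and 0.26 with voom. It was 0.27 with voom from 0.5 FPKM, 0.13 with the length trend removed and 0.20 with the local chromosomal median removed. The pseudocount and voom change the scale, so these medians are not like for like. The fit with no filter takes in 59 members and voom from 0.5 FPKM 46, against 41. What part each difference had was not tested. Among genes that had not passed, the sign changed with the length trend removed for COL4A6 (-0.027), COL18A1 (-0.013) and FBN1 (-0.075). With the local chromosomal median removed it changed for COL4A6 (-0.059), COL18A1 (-0.0091), SDC1 (-0.026), LOXL1 (0.12), LOXL2 (0.34), PLOD3 (0.066) and SERPINH1 (-0.0082). With a library left out it changed for LAMA4 (-0.053 to 0.018) and PLOD3 (-0.060 to 0.037). Libraries with the same number did not deviate together (correlation across genes of -0.046), so the numbers were not taken as pairs; with a replicate block 3712 genes were higher and 3571 lower, and 26 matrix genes were higher and 4 lower, without LTBP1 (0.17) and COL13A1 (-0.24). With 2 libraries per group, p-values of single genes depend on a variance that limma pools over genes. With no filter, 5 of the 18 members under 1 FPKM passed: LAMB3 (0.77), COL5A2 (0.46), FBLN2 (0.24) and LUM (0.17) as higher and COL12A1 (-0.29) as lower, beside 10.3% of all 35055 genes in that fit higher and 9.24% lower.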
